A study of Sus scrofa with 30 samples.

Results

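Of the genes whose mRNA was higher after porcine neonatal islet cell clusters (NICCs) had matured in culture, 162 had a similar mean with fetuin-A and with SB431542, and these 162 genes are described here. NICCs are obtained by digesting pancreas of neonatal pigs, and they mature further in a serum-free medium. RNA was sequenced in 24 libraries of 6 conditions, with 4 libraries each. HSA/d1 is the start of maturation in medium with human serum albumin (HSA) at culture day 6, and the other 5 conditions were collected at culture day 10, which is maturation d5. HSA/d5 had the same medium. In Fet-A/d5 human fetuin-A, a glycoprotein secreted by the liver, took the place of HSA. HSA + SB/d5 had HSA with SB431542, an inhibitor of the kinase of the TGFβ receptor TGFBR1. HSA + LDN/d5 had HSA with an addition named LDN, whose identity and dose are not given in the sources used here, and HSA + SB + LDN/d5 had both additions. The 4 libraries of a condition stand for 4 islet preparations, but no library was tied to a preparation or to the age of a piglet. The paper describes NICCs from piglets of different ages in this sequencing, and reports a slightly weaker fetuin-A effect in the older ones. Differences between the libraries of a condition may therefore include piglet age, which was not tested. NICCs hold exocrine, mesenchymal and glial cells beside endocrine cells, and in bulk samples fewer cells of a type and less RNA per cell cannot be told apart.

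The members were chosen from measured values. Counts were divided by the total count of each library to give CPM, the count per 1000000 counts of the library, and ratios were taken between means of 4 libraries on the log2 scale, with 0.5 CPM added to each mean. A member had a mean of at least 1 CPM in its highest condition, a ratio of HSA/d5 to HSA/d1 of at least 1, and all 4 HSA/d5 libraries above all 4 HSA/d1 libraries. Its ratios of Fet-A/d5 to HSA/d5 and of HSA + SB/d5 to HSA/d5 both differed from 0 by less than 0.59 (rounded), which is a 1.5-fold change. Of 25880 genes in the table, 13860 reached 1 CPM in a condition, 702 of them met the conditions on the rise and are called risen here, and 162 of the 702 (23.1%) met both conditions on the treatments. A gene symbol was found for 141 members, and 21 are known here by identifier only. What these conditions used is given below as a description and was not tested. Members with counts near 0 were few, since 143 of the 162 had at least 10 counts in every HSA/d1 library, and the lowest count of a member in an HSA/d5 library was 12.

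Beta cells of newborn mammals secrete insulin poorly in response to glucose and acquire that response after birth. Endocrine cells then build up hormone granules, the channels that turn a change of membrane potential into calcium entry, and the machinery that fuses granules with the plasma membrane. Much of this apparatus is shared with neurons, so genes of synapses, axon guidance and neuronal ion channels belong to the normal equipment of islet cells as well as to that of the nerve fibres and Schwann cells that surround islets. TGFβ receptors signal through SMAD2 and SMAD3, and fetuin-A binds TGFβ family ligands.

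Total counts were between 18883734 and 24346119 per library, with a median of 20924473. Islet markers were present in all libraries, as the summed CPM of 26 islet hormone and granule genes was between 5961 and 10913 in HSA/d1 and between 28595 and 51158 in HSA/d5. The libraries numbered 4 stood apart in their RNA of neural markers. Summed over 18 Schwann and neural markers, they reached 1634 CPM in HSA/d1 and 3340 CPM in HSA/d5, against 797 to 1095 and 1489 to 1712 CPM in the other 3 libraries of each. Library 4 was also the highest of the 4 in each of the other conditions. It had the highest islet hormone and granule sum as well in every condition but Fet-A/d5. In Fet-A/d5, library 3 had 21298 CPM of islet hormone and granule genes, against 3771 to 10454 CPM in the other 3. Acinar markers had a median sum of 16116 CPM in HSA/d1 and 4402 CPM in HSA/d5, and mesenchymal markers had one of 7774 CPM in HSA/d5 and 1770 CPM in Fet-A/d5. Library 3 of HSA/d5 had only 2154 CPM of mesenchymal markers, against 7232 to 9291 CPM in the other 3. It lay within the Fet-A/d5 range of 1420 to 3298 CPM. Sums over immune markers were at most 180.4 CPM in any library. Endothelial markers had median sums of 819 CPM in HSA/d1 and 703 CPM in HSA/d5.

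The difference from HSA/d1 was moderate for most members. The log2 ratio of HSA/d5 to HSA/d1, which chose them, had a median of 1.21 and ran from 1.01 to 2.15; 131 members were below 1.5 and 4 reached 2. Summed over the 162 members, the libraries held 2357 to 3368 CPM in HSA/d1 (median 2769) and 6333 to 8177 CPM in HSA/d5 (median 6522). The median sum was 5998 CPM in Fet-A/d5, 5243 CPM in HSA + SB/d5, 6950 CPM in HSA + LDN/d5 and 5845 CPM in HSA + SB + LDN/d5. Every one of the 162 had a higher mean in each of these 4 conditions than in HSA/d1, which the choice of members makes certain for the first 2. By edgeR's quasi-likelihood test, 152 of the 162 were higher in HSA/d5 than in HSA/d1 at an adjusted p below 0.05 and a log2 fold change above 1, where 6.7% of all 14842 genes tested were, and nothing is read from this count because the same contrast chose them.

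**Figure D1:**
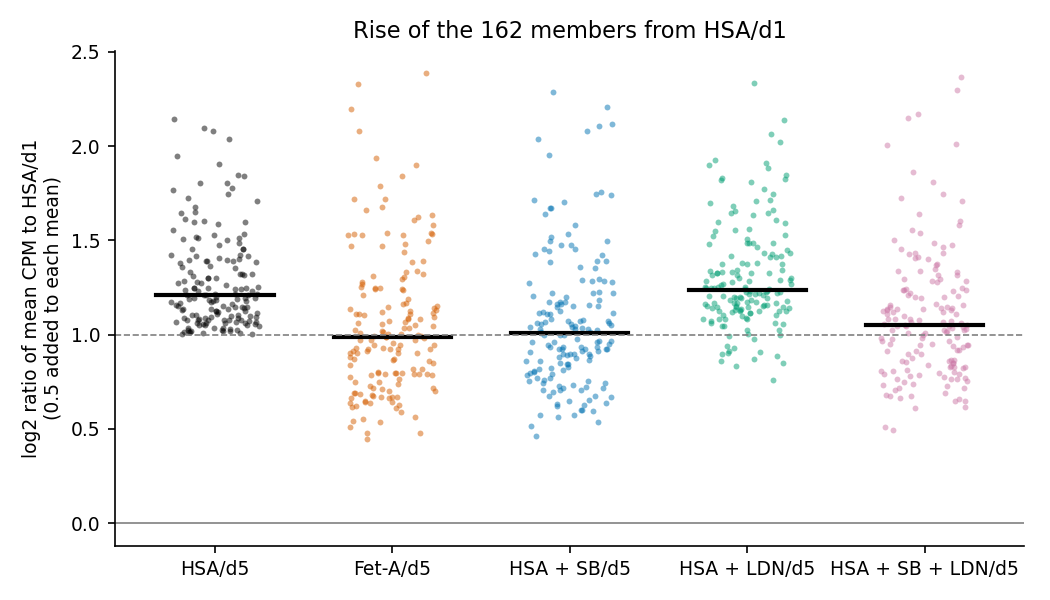
Each point is a member, and the vertical axis gives the log2 ratio of its mean CPM to HSA/d1 in each of the 5 d5 conditions on the horizontal axis. Black bars are medians, and the dashed line marks a ratio of 1. The medians are 1.21 in HSA/d5, 0.99 in Fet-A/d5, 1.01 in HSA + SB/d5, 1.24 in HSA + LDN/d5 and 1.05 in HSA + SB + LDN/d5, and no point lies below 0.

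The rise was seen in the LDN libraries, which entered none of the ratios. In HSA + LDN/d5 the log2 ratio to HSA/d1 had a median of 1.24 and was at least 1 for 147 members, and in HSA + SB + LDN/d5 the median was 1.05 and 94 members were at 1 or above. All 4 libraries lay above all 4 HSA/d1 libraries for 159 members (98.1%) in HSA + LDN/d5, where this was so for 21.9% of all genes tested. The number was 130 (80.2%) in HSA + SB + LDN/d5, against 17.7% of all genes tested. At both thresholds of the edgeR test, 154 members were higher in HSA + LDN/d5 than in HSA/d1 (7.1% of all genes tested) and 99 in HSA + SB + LDN/d5 (5.56% of all genes tested). HSA/d1 is shared with the choice of members, who were chosen low there, so these numbers are descriptions. In the treated libraries that did enter the ratios, all 4 lay above HSA/d1 for 106 members with fetuin-A (17.8% of all genes tested) and for 126 with SB431542 (17.4% of all genes tested).

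Neither treatment left the members exactly at the HSA level. The log2 ratio of Fet-A/d5 to HSA/d5 had a median of -0.31 and that of HSA + SB/d5 to HSA/d5 a median of -0.26, with 130 of 162 members below 0 in each. Both ratios were below 0 for 103 members, both were above 0 for 5, and 20 had both within 0.2 of 0. The other 540 risen genes had a median of -1.10 with fetuin-A and of -0.36 with SB431542, the second of which is near that of the members. A risen gene is called lowered where its ratio reached the lower limit of the conditions, with no test. Of the 702 risen genes, 462 were lowered by fetuin-A, 348 of them by fetuin-A and not by SB431542, and 170 were lowered by SB431542. No member could be lowered, so all 462 were among the 540 risen genes outside the group. The choice of members thus largely fixes that risen genes outside the group were lowered by fetuin-A, and such counts for gene lists are descriptions. In the edgeR test 12 members, 11 of them lower, had an adjusted p below 0.05 between Fet-A/d5 and HSA/d5 (35.6% of all genes tested) and 6 did between HSA + SB/d5 and HSA/d5 (7.12% of all genes tested), and these counts reflect how the members were chosen. With 3 surrogate variables as covariates they became 52 for fetuin-A (32.1% of members, 49.3% of all genes tested) and 61 for SB431542 (37.7% of members, 24.5% of all genes tested). None of the 162 passed with a log2 fold change above 1 as well, in edgeR or in DESeq2, where in edgeR 8.13% of all genes tested did for fetuin-A and 2.42% for SB431542. An unadjusted p below 0.05 was found for 30 members (18.5%) in each comparison, against 45% of all genes tested for fetuin-A and 21.8% for SB431542.

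**Figure D2:**
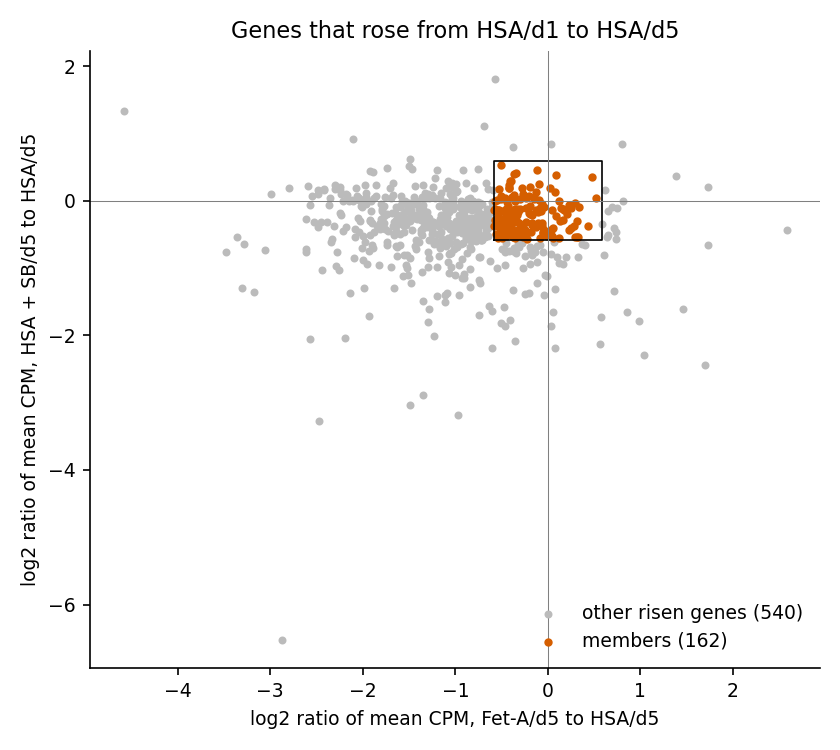
All 702 risen genes are placed by the log2 ratio of mean CPM of Fet-A/d5 to HSA/d5 (horizontal axis) and of HSA + SB/d5 to HSA/d5 (vertical axis), with the 162 members in orange inside the square that chose them. The members fill the edge of a continuous cloud that extends to lower fetuin-A ratios, and 103 of them lie below 0 on both axes.

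The edges of the group were not gaps in the data. Just inside the condition on the rise were NYAP1 and STKLD1, both at 1.01, and just outside were MAST4 and CHD5, both at 1.00 after rounding. With fetuin-A, GPR75 and NUP210 were just inside at -0.58, and KIF5C was just outside at -0.59. With SB431542, SLCO3A1 and HSPG2 were just inside at -0.56, and ADAMTS17 (-0.61) and PHF24 (-0.63) were just outside. The members nearest to the lowest level admitted were GRIP2 at 1.11 CPM and LMX1A at 1.18 CPM in their highest condition. A further 37 genes met every other condition but had overlapping HSA/d1 and HSA/d5 libraries.

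Membership on the side of fetuin-A rested on 1 library for a part of the group. Library 3 of Fet-A/d5 was the highest of the 4 for 93 members (57.4%), where it was the highest for 32.4% of all genes tested. Without it, the median log2 ratio of Fet-A/d5 to HSA/d5 over the 162 members was -0.39, the lowest was -1.41, and 40 members lay below the lower limit. The same library had the most islet hormone and granule RNA of its condition, as given above, and the part of that in the result was not tested. When the conditions were applied to the other libraries anew, 124 genes met them, 121 of them members. In the edgeR test without this library, 5 members were called between Fet-A/d5 and HSA/d5 at both thresholds (9.16% of all genes tested) and 38 at an adjusted p below 0.05 (35.9% of all genes tested). By role, 4 of the 7 voltage-gated channel genes, 6 of the 17 synaptic vesicle and membrane traffic genes and 2 of the 6 transcription factor and RNA-binding genes fell outside, against 2 of the 21 adhesion, guidance and matrix genes and 1 of the 14 transporter genes. Membership rested on single HSA/d5 libraries as well. Applied without library 4 of HSA/d5 the conditions kept 112 of the members, and without library 2 of HSA/d5 they kept 119.

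**Figure D3:**
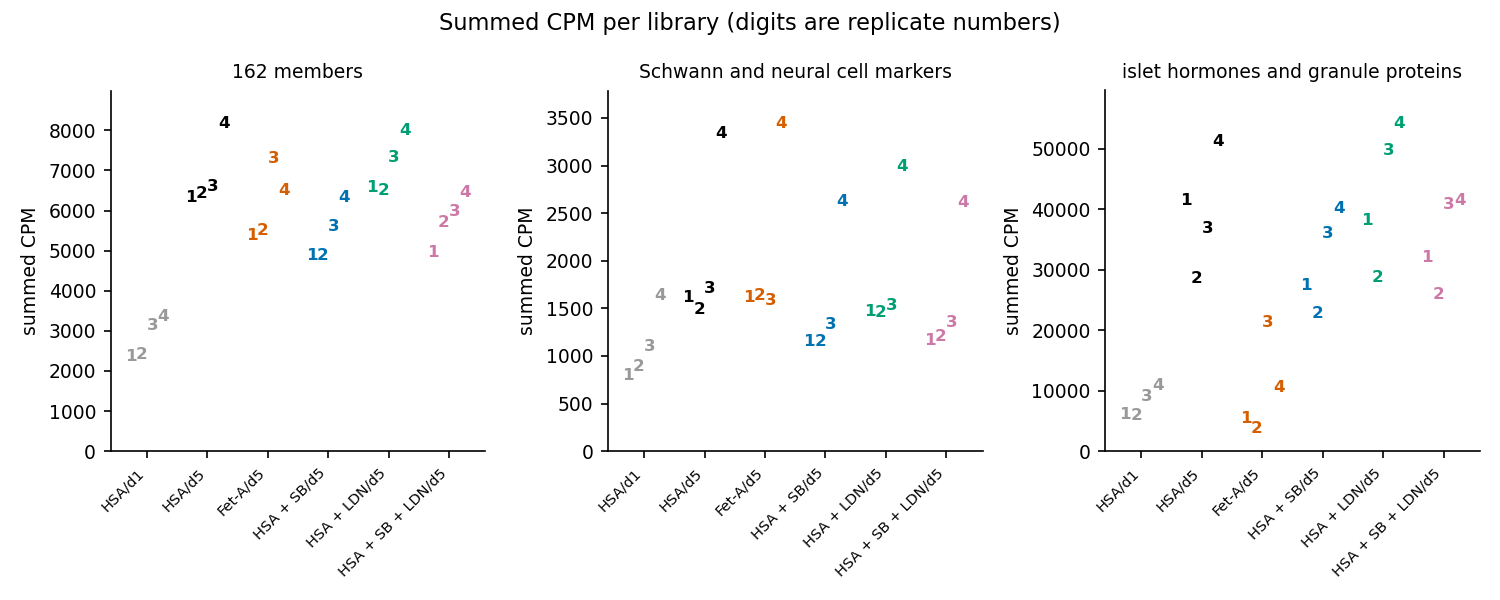
The vertical axes give summed CPM in each library for the 162 members (left), 18 Schwann and neural markers (centre) and 26 islet hormone and granule genes (right), with each library drawn as its replicate number. Replicate 4 has the highest neural sum in every condition, and replicate 3 of Fet-A/d5 has the highest member and islet sums of its condition, at 7294 and 21298 CPM.

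Among transcription factors of the endocrine lineage, RFX6 showed this dependence. RFX6, a factor required for the formation of islet endocrine cells, was at 19.6, 23.9, 42.3 and 37.2 CPM in the 4 HSA/d1 libraries and at 101, 84.4, 139 and 123 CPM in HSA/d5. In Fet-A/d5 it was at 60.0, 35.4, 184 and 67.1 CPM and in HSA + SB/d5 at 73.1, 80.9, 144 and 98 CPM. Library 3 of Fet-A/d5 was above every HSA/d5 library and the other 3 were below all of them, so that the log2 ratio of -0.37 over 4 libraries became -1.04 without library 3. NKX2-2, a homeodomain factor of beta cell identity, was at 12.4, 17.8, 18 and 19.2 CPM in HSA/d1, 35.4, 27.3, 32.9 and 47.1 CPM in HSA/d5 and 22.9, 24.9, 37.3 and 23.3 CPM in Fet-A/d5. Its ratio with fetuin-A moved from -0.39 to -0.58 without library 3, which was still just inside the limit. LMX1A, a LIM homeodomain factor, had means of 0.257 ± 0.218 CPM in HSA/d1, 1.08 ± 0.502 CPM in HSA/d5 and 0.72 ± 0.444 CPM in Fet-A/d5 (SD, n = 4). Of 42 endocrine transcription factors in the table, 14 had risen, 3 of these were members and the other 11 were all lowered by fetuin-A. Over all 702 risen genes, 162 were members and 462 of the other 540 were lowered by fetuin-A. ELAVL4, a neuronal RNA-binding protein also on the Schwann and neural list, was at 4.29 ± 1.13 CPM in HSA/d1, 10.2 ± 2.03 CPM in HSA/d5 and 9.01 ± 2.22 CPM in Fet-A/d5 (mean ± SD, n = 4).

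Ion channels formed a second group, with 7 voltage-gated channel genes and 4 ligand-gated ones. CACNA2D1, the α2δ subunit that brings voltage-gated calcium channels to the membrane, was at 58.9, 65.8, 97 and 119.6 CPM in HSA/d1 and at 235, 207, 219 and 316 CPM in HSA/d5. It was at 131, 81.4, 312 and 166 CPM in Fet-A/d5 and at 134, 129, 185 and 217 CPM in HSA + SB/d5, so only library 3 with fetuin-A and library 4 with SB431542 reached the HSA/d5 range. SCN9A, a voltage-gated sodium channel, was at 15.5, 15.8, 18 and 24.6 CPM in HSA/d1, 52.7, 45.2, 51.9 and 67.6 CPM in HSA/d5, 33.9, 25.5, 60.5 and 44.8 CPM in Fet-A/d5 and 33, 31.8, 47.5 and 45.4 CPM in HSA + SB/d5. In both genes fetuin-A libraries 1, 2 and 4 lay below all HSA/d5 libraries and library 3 lay within their range. The log2 ratios with fetuin-A and SB431542 were -0.50 and -0.55 for CACNA2D1 and -0.40 and -0.46 for SCN9A. ITPR1, the inositol trisphosphate receptor that releases calcium from the endoplasmic reticulum, was at 27.7, 27.8, 36.2 and 40.7 CPM in HSA/d1, 78, 81, 65 and 84.5 CPM in HSA/d5 and 46.7, 51.8, 60.9 and 59.2 CPM in Fet-A/d5, and all 4 fetuin-A libraries lay between the HSA conditions. CHRNA3, a subunit of nicotinic acetylcholine receptors, was closer to the HSA level with fetuin-A, at 13.1, 15.5, 17.6 and 20.6 CPM in HSA/d5 and 12.1, 15.9, 19 and 13.9 CPM in Fet-A/d5, after 5.27, 4.96, 10.2 and 8.04 CPM in HSA/d1.

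Of 57 ion channel and transporter genes on the list in the table, 21 had risen and 3 were members. Of the other 18, 16 were lowered by fetuin-A, against 462 of all 540 risen genes outside the group. Of 51 receptors of hormones, nutrients and transmitters, 12 had risen, and CHRNA3 was the only member among them. KCNC2 and KCNB2, which encode potassium channels and were named after their values were seen, had log2 ratios of HSA/d5 to HSA/d1 of 2.10 and 1.81. KCNC2 was highest in library 4 of every condition, with 3.91, 3.25, 4.94 and 11 CPM in HSA/d5 and 4.21, 4.59, 5.01 and 13.8 CPM in Fet-A/d5.

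Synaptic vesicle and membrane traffic genes made up 17 members. RIMBP2, an active-zone protein that ties calcium channels to release sites, was at 9.68, 9.54, 21.5 and 22.2 CPM in HSA/d1, 44.1, 36.5, 50.3 and 65.7 CPM in HSA/d5 and 23.5, 17.7, 66.2 and 28.1 CPM in Fet-A/d5. As with RFX6, 3 fetuin-A libraries were below all HSA/d5 libraries and library 3 was above them, and the ratio moved from -0.53 to -1.07 without library 3. KIF1A, a kinesin that carries vesicles along microtubules, was not lower with fetuin-A. It was at 68.2, 87.8, 79.8 and 109.6 CPM in HSA/d1, 197, 212, 160.1 and 287 CPM in HSA/d5, 234, 281, 269 and 293 CPM in Fet-A/d5 and 177, 198, 186 and 238 CPM in HSA + SB/d5, and its log2 ratio with fetuin-A was 0.33. All 4 fetuin-A libraries were above HSA/d5 libraries 1 to 3. SYT11, a synaptotagmin, was at 17.4, 17.5, 23 and 32 CPM in HSA/d1, 45.2, 49.3, 40.8 and 81.7 CPM in HSA/d5, 47.6, 49.9, 42.7 and 75.5 CPM in Fet-A/d5 and 32.9, 32.4, 28.5 and 57.1 CPM in HSA + SB/d5. Its ratio was -0.01 with fetuin-A and -0.52 with SB431542, and library 4 was the highest in each of the 4 conditions.

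The other vesicle genes named by rule had lower levels with both treatments. NBEA, or neurobeachin, a scaffold of membrane traffic, had log2 ratios of -0.26 with fetuin-A and -0.41 with SB431542. For BSN, which encodes the active-zone scaffold bassoon, they were -0.40 and -0.47. For SYT14 they were -0.36 and -0.55. Of 54 exocytosis genes in the table, 20 had risen and 5 were members (SYT11, SYT14, RIMBP2, SYN2 and BSN), where 23.1% of all risen genes were members. The other 15 were all lowered by fetuin-A, as were 462 of all 540 risen genes outside the group.

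**Figure D4:**
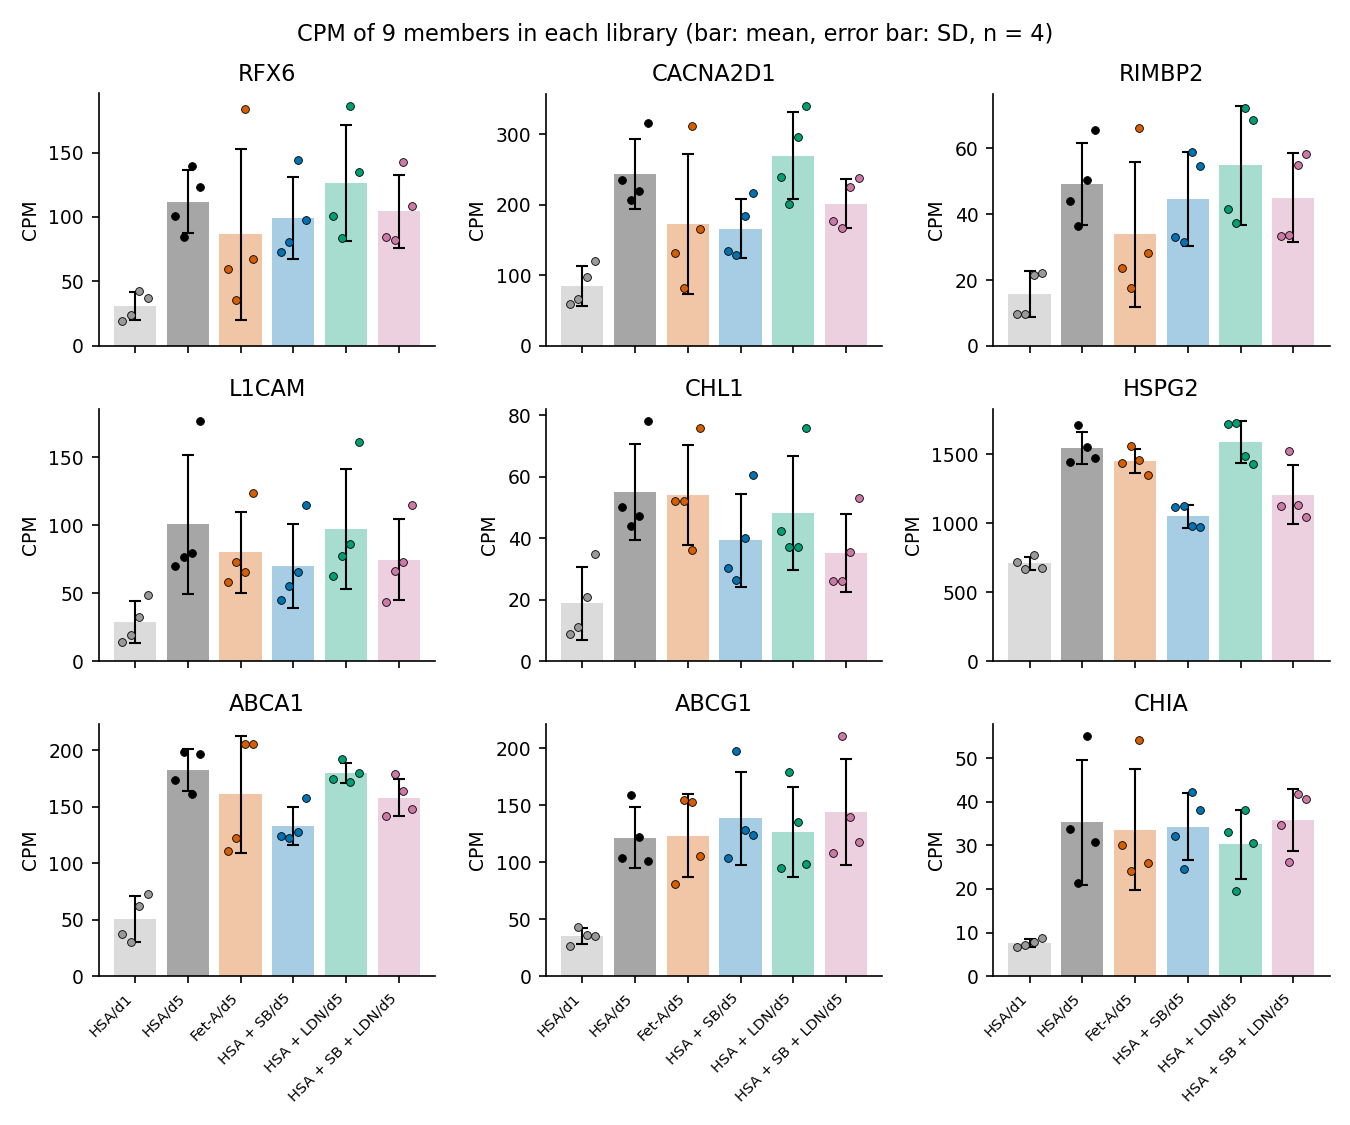
The vertical axes give CPM, with a point for each library in the order of replicate numbers, a bar for the mean and an error bar for the SD (n = 4), for 9 members in the 6 conditions. RFX6, CACNA2D1 and RIMBP2 have a single high Fet-A/d5 library (replicate 3), L1CAM and CHL1 are highest in replicate 4 of every condition, and ABCG1 and CHIA have similar means in all 5 d5 conditions.

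The largest role was adhesion, axon guidance and matrix, with 21 members, 3 of them from the L1 family of neuronal cell adhesion molecules. L1CAM was at 13.9, 19.5, 32.1 and 48.5 CPM in HSA/d1, 69.7, 76.4, 79.7 and 177 CPM in HSA/d5, 57.9, 72.7, 65.4 and 124 CPM in Fet-A/d5 and 44.9, 55.2, 65.8 and 115 CPM in HSA + SB/d5. CHL1 was at 8.67, 11, 20.9 and 34.9 CPM in HSA/d1, 50.3, 44.1, 47.4 and 78.3 CPM in HSA/d5, 52, 52.2, 36.2 and 76 CPM in Fet-A/d5 and 30.3, 26.5, 40.1 and 60.5 CPM in HSA + SB/d5. In both genes library 4 was the highest of every condition, and 3 of the 4 fetuin-A libraries of CHL1 were above the second highest HSA/d5 library. NRCAM was at 8.44, 7.53, 13.7 and 14.5 CPM in HSA/d1, 31, 26.9, 26.6 and 40.0 CPM in HSA/d5 and 20.9, 26.7, 22.1 and 28.3 CPM in Fet-A/d5. The remaining gene of the family, NFASC, had also risen but lay outside the group, with a log2 ratio of -1.24 between Fet-A/d5 and HSA/d5. CNTN4, a contactin, had means of 8.07 ± 3.22 CPM in HSA/d5 and 6.26 ± 4.83 CPM in Fet-A/d5 (SD, n = 4), with a spread with fetuin-A larger than the difference. Of 59 adhesion and junction genes in the table, 18 had risen and 5 were members. Of the other 13, 7 were lowered by fetuin-A, against 462 of all 540 risen genes outside the group.

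Glial markers were measured beside the adhesion genes. SOX10, a transcription factor that defines Schwann cells, had a mean of 58.7 CPM in HSA/d1, 116 CPM in HSA/d5, 138 CPM in Fet-A/d5 and 86.5 CPM in HSA + SB/d5. Its log2 ratio of HSA/d5 to HSA/d1 was 0.98. Its HSA/d1 library 4 (104 CPM) was also above HSA/d5 libraries 1 and 2 (82.3 and 66.0 CPM), so it failed both conditions on the rise and was no member. Over all 18 markers on the list that were in the table, 8 had risen and 2 were members, ELAVL4 and MAP2. The list's sum in HSA/d5 ranged from 1489 to 3340 CPM, with 1577 to 3444 CPM in Fet-A/d5 and 1155 to 2623 CPM in HSA + SB/d5. Of the 162 members, 111 (68.5%) were highest in library 4 of HSA/d5, which was the highest for 31.9% of all genes tested, and 110 (67.9%) were highest in library 4 of HSA/d1, against 36.5%. In Fet-A/d5 it was 44 members (27.2%), against 21.0%. Library 4 also had the highest islet hormone and granule sum in HSA/d1 (10913 CPM) and HSA/d5 (51158 CPM). In Fet-A/d5 library 3 had the highest such sum, and 93 members (57.4%) were highest there, against 32.4% of all genes tested. Without the libraries numbered 4, chosen after these sums had been seen, the median log2 ratio to HSA/d1 was 1.20 in HSA/d5, 1.07 in Fet-A/d5, 1.01 in HSA + SB/d5, 1.27 in HSA + LDN/d5 and 1.07 in HSA + SB + LDN/d5. The conditions applied to the 18 libraries left gave 234 genes, 141 of them members. How much of the rise of the members comes from neural cells or from endocrine cells was not tested.

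HSPG2, DST and MAP2 had a lower ratio with SB431542 than with fetuin-A. HSPG2, which encodes the basement membrane proteoglycan perlecan, was at 722, 671, 771 and 673 CPM in HSA/d1, 1446, 1711, 1554 and 1473 CPM in HSA/d5, 1439, 1562, 1456 and 1353 CPM in Fet-A/d5 and 1117, 1128, 980.1 and 975 CPM in HSA + SB/d5. Fetuin-A libraries overlapped those of HSA/d5, whereas all 4 SB431542 libraries lay between HSA/d1 and HSA/d5. DST, or dystonin, a protein that links cytoskeletal filaments, was at 214, 215, 307 and 342 CPM in HSA/d1, 419, 491, 552 and 785 CPM in HSA/d5, 414, 511, 712 and 694 CPM in Fet-A/d5 and 305, 300.4, 432 and 501 CPM in HSA + SB/d5. Its log2 ratios were 0.05 with fetuin-A and -0.55 with SB431542. MAP2, a microtubule-associated protein of neurons, was at 103, 105, 144 and 137 CPM in HSA/d1, 263, 229, 290.1 and 295 CPM in HSA/d5, 193, 158, 341 and 204 CPM in Fet-A/d5 and 166, 145, 227 and 205 CPM in HSA + SB/d5. SPOCK2, a secreted proteoglycan, went the other way, with -0.44 for fetuin-A and -0.02 for SB431542. Of 61 genes of the extracellular matrix list, 4 had risen and HSPG2 was the only member. Over the 11 cytoskeletal members the median ratio was -0.27 with fetuin-A and -0.46 with SB431542.

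Sterol transport and fatty acid genes were the only list of which every risen gene was a member. Of 37 genes of cholesterol and fatty acid metabolism in the table, 3 had risen, and these were ABCA1, ABCG1 and SCD. ABCA1, the pump that passes cholesterol to apolipoproteins, was at 37.3, 30.0, 62.1 and 72.5 CPM in HSA/d1, 173, 199, 161 and 196 CPM in HSA/d5, 111, 122, 206 and 205 CPM in Fet-A/d5 and 124, 123, 127 and 157 CPM in HSA + SB/d5. Fetuin-A libraries 3 and 4 were above all HSA/d5 libraries and libraries 1 and 2 below all of them. ABCG1, which exports cholesterol to lipoproteins, was at 26.3, 43.4, 36.4 and 35.3 CPM in HSA/d1, 103, 159, 123 and 101 CPM in HSA/d5, 80.5, 154, 153 and 105 CPM in Fet-A/d5 and 104, 198, 128 and 124 CPM in HSA + SB/d5. It was also at 94.6, 179, 135 and 98 CPM in HSA + LDN/d5 and 108, 211, 140.0 and 118 CPM in HSA + SB + LDN/d5, so its 20 d5 libraries overlapped between conditions and none reached down to HSA/d1. SCD, the desaturase that makes monounsaturated fatty acids, was at 38, 30.3, 31 and 42.9 CPM in HSA/d1, 142, 128, 72.6 and 88.3 CPM in HSA/d5 and 63.9, 79.8, 69.2 and 77.6 CPM in Fet-A/d5, where its ratio of -0.57 was close to the limit.

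Among the members with the largest rise were secreted and signalling proteins. CHIA, the acidic chitinase, had the largest log2 ratio of HSA/d5 to HSA/d1 of all members (2.15) and was at 6.7, 7.05, 7.75 and 8.81 CPM in HSA/d1, 33.7, 21.4, 55.1 and 30.7 CPM in HSA/d5, 30.2, 24.2, 54.1 and 26.1 CPM in Fet-A/d5 and 32.2, 24.5, 42.2 and 38.1 CPM in HSA + SB/d5. PPP1R1A, an inhibitor of protein phosphatase 1 found in beta cells, was at 4.17, 3.22, 6.31 and 6.4 CPM in HSA/d1, 23.5, 15.5, 23.7 and 29 CPM in HSA/d5, 9.03, 4.95, 37.8 and 12.3 CPM in Fet-A/d5 and 16.3, 13.1, 30.0 and 34.4 CPM in HSA + SB/d5. Without library 3 of Fet-A/d5 its ratio with fetuin-A was -1.34, against -0.50 over 4 libraries. TMEM59L was at 9.08, 8.36, 16 and 19.1 CPM in HSA/d1, 47.3, 37.7, 43.9 and 73.6 CPM in HSA/d5 and 29.7, 26.4, 32.8 and 51.9 CPM in Fet-A/d5. For SLC29A4, a transporter of monoamines, the ratios were 1.71 from HSA/d1 to HSA/d5, -0.27 with fetuin-A and -0.49 with SB431542. TCN1, a vitamin B12-binding protein, scattered widely between libraries, at 34.5 ± 17.8 CPM in HSA/d5 and 47.8 ± 47.1 CPM in HSA + SB/d5 (SD, n = 4). XKR4, a scramblase-related membrane protein, was highest in library 4 of every condition and had ratios of 1.68, 0.17 and -0.28.

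The flattest members kept nearly 1 level over all 5 d5 conditions. Over the 162 members the range of the log2 condition means across d5 was 0.52 at the median and ran from 0.17 to 1.05. Among members with a symbol and at least 10 CPM in HSA/d5, the smallest ranges were those of RPS6KL1 (0.18), TMOD2 (0.21), FRMD5 (0.23), CHIA (0.24) and ABCG1 (0.25). RPS6KL1, a protein related to ribosomal S6 kinases, was at 8.35, 8.93, 9.09 and 9.77 CPM in HSA/d1, 19.8, 23.3, 18 and 20.6 CPM in HSA/d5, 21.5, 19.7, 27.2 and 20.6 CPM in Fet-A/d5 and 18.3, 22.9, 21 and 19 CPM in HSA + SB/d5. It was at 19.1, 25.4, 21.3 and 19.9 CPM in HSA + LDN/d5 and 19.4, 23, 17.8 and 18 CPM in HSA + SB + LDN/d5. Of TMOD2, a tropomodulin that caps actin filaments, the mean was 15.8 ± 7.35 CPM in HSA/d1 and 34.9 ± 11.8 CPM in HSA/d5 (SD, n = 4). Condition means this close may still differ by amounts within the spread of their 4 libraries.

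Whether SB431542 also acted little on the members in the presence of LDN was the one question that could be tested in libraries outside the ratios. Between HSA + SB + LDN/d5 and HSA + LDN/d5, no member passed both thresholds of the edgeR test (0.829% of all genes tested), and none did in DESeq2. A single member, B4GALNT3, had an adjusted p below 0.05 (0.617% of members against 1.74% of all genes tested), and 21 members (13.0%) had an unadjusted p below 0.05, against 13.7% of all genes tested. The median SE was 0.25 over the members and 0.13 over all genes tested. A change of the same size was thus harder to call in members, and the shares do not show a smaller effect on them. The fold changes were nevertheless mostly on the lower side. The median log2 fold change was -0.25 over the members, with quartiles of -0.37 and -0.05, against 0.00 over all genes tested, and 134 members (82.7%) were below 0, against 49.6%. Over the 348 risen genes that fetuin-A and not SB431542 had lowered, the median was -0.22, and over the 170 that SB431542 had lowered it was -0.75. These medians share the same 8 libraries, and genes are not independent replicates.

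**Figure D5:**
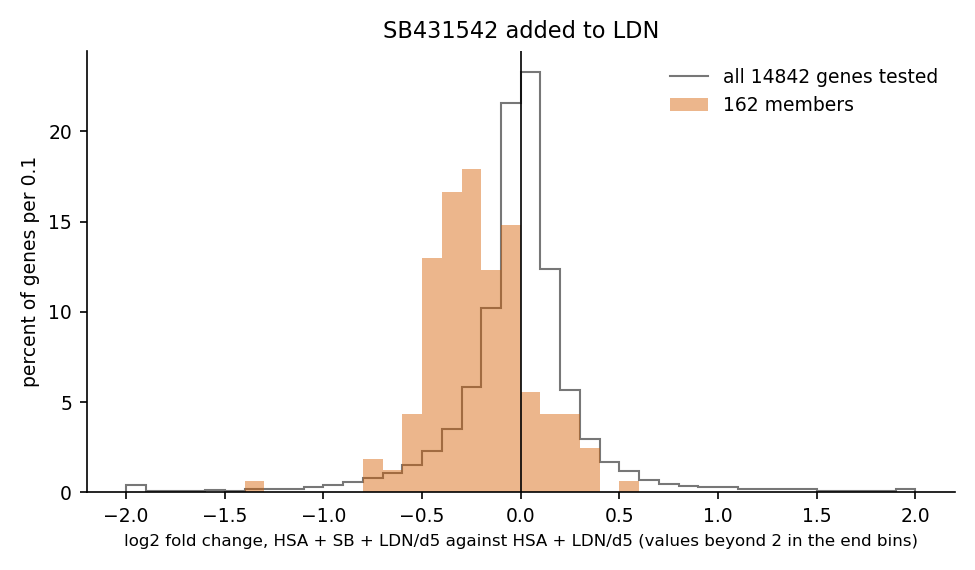
The horizontal axis gives the log2 fold change between HSA + SB + LDN/d5 and HSA + LDN/d5 in equal bins (values beyond 2 are in the end bins) and the vertical axis the percent of genes in each bin, for the 162 members (filled) and all 14842 genes tested (line). The members lie mostly left of 0, with a median of -0.25.

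B4GALNT3, which encodes an enzyme that adds N-acetylgalactosamine to glycans, fell by 0.46 on the log2 scale (SE 0.10, adjusted p = 0.0209 by edgeR's quasi-likelihood test). It was at 30.2, 27.8, 33.5 and 34.8 CPM in HSA + LDN/d5 and at 24.2, 22.3, 21.3 and 23 CPM in HSA + SB + LDN/d5, and the libraries did not overlap. Over 16 alternatives the fold change stayed between -0.52 and -0.41, and the adjusted p lay between 0.00119 and 0.0825, with 10 below 0.05. The call was lost without HSA + LDN/d5 replicates 3 or 4, without HSA + SB + LDN/d5 replicates 2, 3 or 4, and without the 6 libraries numbered 4. In the contrast that chose it, B4GALNT3 was at 30.0, 28.5, 26.2 and 38 CPM in HSA/d5 and 20.3, 20.3, 21.3 and 22.6 CPM in HSA + SB/d5. Next by p were SLCO3A1, an organic anion transporter, with a log2 fold change of -0.53 (SE 0.14, adjusted p = 0.0628 by edgeR), HSPG2 with -0.38 (SE 0.11, adjusted p = 0.0838) and GC, the vitamin D-binding protein, with 0.52 (SE 0.16, adjusted p = 0.124). GC is named after its values were seen and had the highest fold change of the 162.

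The precision of this comparison bounds what it shows. The 95% interval of the log2 fold change had a median half-width of 0.52 and lay wholly between -1 and 1 for 120 of the 162 members. It reached below -1 for 37 members and above 1 for 7. For RFX6 the interval was -1.04 to 0.51, for CACNA2D1 -1.01 to 0.20, for ABCA1 -0.60 to 0.26 and for ABCG1 -0.34 to 0.75. A member without a call is therefore not shown to be unaffected by SB431542. With 3 surrogate variables as covariates, 37 members (22.8%) had an adjusted p below 0.05, against 14.1% of all genes tested in the same fit, and 1 passed both thresholds, against 2.66%. The low share of members called therefore depends on the fit. With DESeq2 3 members (1.85%) had an adjusted p below 0.05, against 3.28% of all genes tested.

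No effect of LDN on the members was detected beyond the spread of the libraries. Between HSA + LDN/d5 and HSA/d5 the median log2 fold change of members was 0.03, with a range from -0.49 to 0.59. No member had an adjusted p or an unadjusted p below 0.05 in edgeR or an adjusted p below 0.05 in DESeq2, while 1.21% of all genes tested had an unadjusted p below 0.05. That share is smaller than a threshold of 0.05 would give if no gene differed, so the test was conservative here. The median SE was 0.25 over the members and 0.13 over all genes tested. The lack of calls therefore does not show that LDN left the members unchanged. Between HSA + SB + LDN/d5 and HSA/d5 the median was -0.20, no member passed both thresholds (1.4% of all genes tested) in edgeR or DESeq2, 19 (11.7%) had an unadjusted p below 0.05, against 15.2% of all genes tested, and 1, again B4GALNT3, had an adjusted p below 0.05 (3.11% of all genes tested). The count was 0 when only the 2 conditions were fitted or when HSA + SB + LDN/d5 replicate 3 or 4 or HSA/d5 replicate 4 was left out, and without the 6 libraries numbered 4. HSA/d5 is shared with the conditions that chose the members, who were chosen high there.

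Over all risen genes 23.1% were members and 65.8% were lowered by fetuin-A, which excludes membership. The lists with no member held between 0 and 18 risen genes. All 18 of the 26 islet hormone and granule genes that had risen were lowered by fetuin-A, and 0 were members. GCG, which encodes glucagon, had a mean of 19745 CPM in HSA/d5 and 3605 CPM in Fet-A/d5. Of 45 proliferation genes 12 had risen, all 12 were lowered by fetuin-A, and 0 were members. The 74 genes of the TGFβ and BMP pathway held 3 risen genes and no member, while the edgeR test, at both thresholds, called 13 of the 66 tested lower and 1 higher in HSA + SB/d5 than in HSA/d5, and 6 lower in HSA + SB + LDN/d5 than in HSA + LDN/d5. Lists with few risen genes say little about membership. Glucose sensing and metabolism had 4 risen genes of 27 and 1 member, PPP1R1A. Immune markers had 6 risen genes of 26, and the acinar list 1 of 20, without a member. Interferon and inflammatory genes (2 of 32) and hepatocyte and gut lineage markers (2 of 18) held risen genes but no member. No gene of the duct, mesenchymal, endothelial or stress lists had risen. By place in the genome, 1 pair of the 136 members found in the pig RefSeq table (assembly Sscrofa11.1), TMEM114 and RBFOX1, were neighbouring protein-coding genes. The number of pairs among as many genes drawn at random was not computed, so nothing is read from this count.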

How the data were processed

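RNA of 24 porcine NICC libraries was sequenced as stranded poly-A libraries with single reads, and 6 of them were listed as 2 runs but had 1 column each. The counts per gene deposited by the authors are raw and whole. Per the submitters' processing notes, FastQC 0.11.8, Trim Galore 0.5, STAR 2.6.1, Picard, featureCounts 1.6.2 and DESeq2 1.22.1 were used, and the genome build and annotation are not given in the sources used here. Genes were kept by filterByExpr and counts normalised by TMM, and edgeR 4.0.16 (R 4.3.3) fitted 14842 genes over all 24 libraries by quasi-likelihood with 1 mean per condition. Adjusted p are Benjamini-Hochberg values over all genes tested, and a gene was called at an adjusted p below 0.05 and an absolute log2 fold change above 1, or by the adjusted p alone where stated. CPM and ratios were computed from the deposited counts and column totals. The fits were tested on simulated data. Alternatives were other normalisations, DESeq2 1.42.0, other filters, only the conditions compared, 3 surrogate variables (sva 3.50.0), and each replicate left out. Replicate numbers follow the accession order and only name libraries.

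The members and gene lists were chosen with earlier results of these data known, and the 10 roles, which cover 100 members, after the members' names had been seen. The named members are up to 4 of each list by their CPM in HSA/d5, the 10 of the highest level, the 10 of the largest rise and the 5 flattest (rise and flatness among members of at least 10 CPM), those next to a threshold, and any called member. Nothing says that the libraries of a condition share or do not share animals beyond the preparations, so p-values measure the spread between these libraries. No protein or nucleotide sequence was used here.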

Additional observations from a re-analysis of the deposited data

Results flagged for a closer look

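In 180 groups of 4 libraries searched for a value far from the other 3, 11 had a gap to the nearest value above Dixon's 95% critical value for 4 values, and chance alone flags about 1 group in 20. Of these, 5 were the summed Schwann and neural markers in replicate 4 of a d5 condition, at 3340 CPM in HSA/d5, 3444 CPM in Fet-A/d5, 2623 CPM in HSA + SB/d5, 2989 CPM in HSA + LDN/d5 and 2611 CPM in HSA + SB + LDN/d5. The summed members were far above the other libraries in HSA/d5 replicate 4, at 8177 CPM. Single members were far above the other libraries in replicate 4 of a condition for L1CAM in HSA/d5 (177.0 CPM), CHL1 in HSA + LDN/d5 (75.8 CPM), SYT11 in HSA + SB/d5 (57.1 CPM) and ABCA1 in HSA + SB/d5 (157 CPM). NKX2-2 was far above the other libraries in Fet-A/d5 replicate 3, at 37.3 CPM.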

How the results depend on the processing

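No paired analysis was made, because the labels tie no library to an islet preparation and the replicate numbers follow the accession order. In that order the 6 conditions repeat 4 times. Libraries of 1 number were alike in some markers, as replicate 4 had the highest Schwann and neural sum and the lowest acinar sum in all 6 conditions and replicate 1 the highest acinar sum, a likeness that the fits did not model. The spread behind the p-values and intervals therefore includes any difference that libraries of 1 number share, and a fit with the number as a block was not made. That spread also includes any difference from piglet age, which the fits did not model. Leaving out 1 library in turn gave 124 to 279 members (279 without HSA/d1 replicate 4, 212 without HSA/d1 replicate 3, 124 without Fet-A/d5 replicate 3), and the cause was not tested. A similar total could hide a change of genes. Without HSA/d5 replicate 4, 166 genes met the conditions, 112 of them among the 162. Without HSA/d5 replicate 2 it was 171 genes, 119 of them among the 162. TMM-scaled CPM gave 147 members, 138 of them among the 162, and an added constant of 0.1 or 1 CPM gave 194 or 137. Members with an adjusted p below 0.05 numbered 7 for fetuin-A, 3 for SB431542 and 0 between HSA + SB + LDN/d5 and HSA/d5 when only the conditions compared were fitted. With 3 surrogate variables they numbered 52, 61 and 32, and 37 between HSA + SB + LDN/d5 and HSA + LDN/d5, and 1 passed both thresholds in each of the last 2 comparisons. DESeq2 gave 3 between HSA + SB + LDN/d5 and HSA + LDN/d5 and 2 between HSA + SB + LDN/d5 and HSA/d5. Without the 6 libraries numbered 4, added after seeing the data, both of these counts were 0, and 234 genes met the conditions on membership. Leaving out 1 library gave 0 to 5 members at both thresholds and 10 to 38 by adjusted p alone for fetuin-A, 3 to 6 by adjusted p alone for SB431542, and 0 to 1 by adjusted p alone for each comparison of HSA + SB + LDN/d5. The median log2 fold change between HSA + SB + LDN/d5 and HSA + LDN/d5 stayed between -0.35 and -0.14. For named members, 606 of 653 values between HSA + SB + LDN/d5 and HSA + LDN/d5 kept direction and side of the threshold, 17 gained a call, 6 lost one and 24 of members without a call changed sign. Gene by gene, the fetuin-A, SB431542 and LDN comparisons with HSA/d5 were not recomputed.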
